A study of Sus scrofa with 4 samples.

Results

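The genes described here are interferon-stimulated genes and sensors of foreign nucleic acid, followed in porcine embryos at the 4-cell stage. The list holds 42 gene symbols, and 39 of them name a row of the deposited table of 35248 rows. No row is named OAS1, IFIT3 or IFNAR2. The identifier table used for gene names gives the symbol IFNAR2 to a row that the deposited table names IL10RB, and that row was not counted as a member. The list was chosen by gene name at a time when the differences in read count between Bobcat339 and control embryos were known, with USP18 among its members, so those differences are given as a description and support nothing further. Of the 39 rows, 24 passed edgeR's filter on low counts and entered the comparison of the groups, and 15 did not.

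The embryos were parthenogenetic: oocytes were activated electrically, without sperm, and cultured for 48 h in PZM-3 medium. Culture with 50 µM Bobcat339, a small molecule used to inhibit the TET enzymes, which oxidise methylated cytosine in DNA, gave 2 samples, the treated libraries. The other 2 samples received the solvent DMSO, which the labels also give as 50 µM. RNA libraries were made with Smart-seq2, which amplifies full-length cDNA. The labels give neither the number of embryos in a library nor separate cultures for the replicates, so the spread between libraries may be technical, and a parthenogenetic embryo has no paternal genome.

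Cells recognise foreign nucleic acid through sensors. RIG-I, encoded by DDX58, and MDA5, encoded by IFIH1, bind RNA in the cytosol and signal through the mitochondrial adaptor MAVS, while cGAS binds DNA and signals through STING, encoded by TMEM173. Both routes use the kinase TBK1 and the factor IRF3 to switch on interferon genes. Secreted interferon then binds the receptor IFNAR1/IFNAR2, and a complex that holds the transcription factors STAT2 and IRF9 turns on the interferon-stimulated genes, among them USP18, which removes the ubiquitin-like modifier ISG15 from proteins and limits signalling from the receptor. Early mammalian embryos and pluripotent cells are known for a weak interferon response.

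The libraries held 13568525 to 14681221 counts, so a gene with no reads may still have reached the level of 3 counts, which is 0.204 to 0.221 CPM (counts scaled to library size); this limit allows for counting error alone. Of 10 oocyte and early embryo markers 9 have a row, and their summed level was 11557 and 12979 CPM in treated libraries 1 and 2, against 11210 and 12810 CPM in controls 1 and 2; they ranged from BMP15, with a mean of 4279 CPM, to ZAR1, with 0.831 CPM. Of the cumulus and granulosa cell markers, 14 of 16 have a row, AMH was at 0 in all 4 libraries and VCAN (72.0 CPM) and VIM (39.8 CPM) had the highest means; their summed level was 120 and 160 CPM in the treated libraries, against 128 and 143 CPM in the controls. Of the blood and immune cell markers, 16 of 17 have a row, 10 of them with a mean under 1 CPM, among them TYROBP, CD163 and CD4, while SPI1 (13.3 CPM), CD74 (4.75 CPM) and CD14 (4.48 CPM) had the highest means; their summed level was 29.8 and 36.4 CPM in the treated libraries, against 33.9 and 30.4 CPM in the controls. In bulk samples such as these, fewer cells of a type and less RNA per cell cannot be told apart. The control libraries were the least alike of the 6 pairs of libraries, with a Pearson correlation across genes of 0.970, while that of the treated pair was 0.986.

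Several members of the antiviral system were abundant in the embryos, while many classical interferon-induced genes were nearly without reads. Levels of different genes are compared on the authors' FPKM scale, which divides counts by gene length and library size. The 8 members with the highest mean FPKM over the 4 libraries were MX1 (43.1), ADAR (31.3), IRF1 (21.6), IFIT5 (20.9), IFNAR1 (20.3), DDX58 (12.8), TRIM25 (10.1) and IFI6 (6.17). By contrast, 15 members had at most 11 counts in any library, and 2 of them, IRF9 and ISG20, had 0 counts in all 4. The summed level of the 39 rows was 652 ± 16.3 CPM in treated embryos, against 646 ± 35.0 CPM in DMSO embryos (SD, n = 2 each), and ADAR, MX1, DDX58, IFIT5, IFNAR1 and IRF1 made up 63.7% to 71.7% of it.

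**Figure D1:**
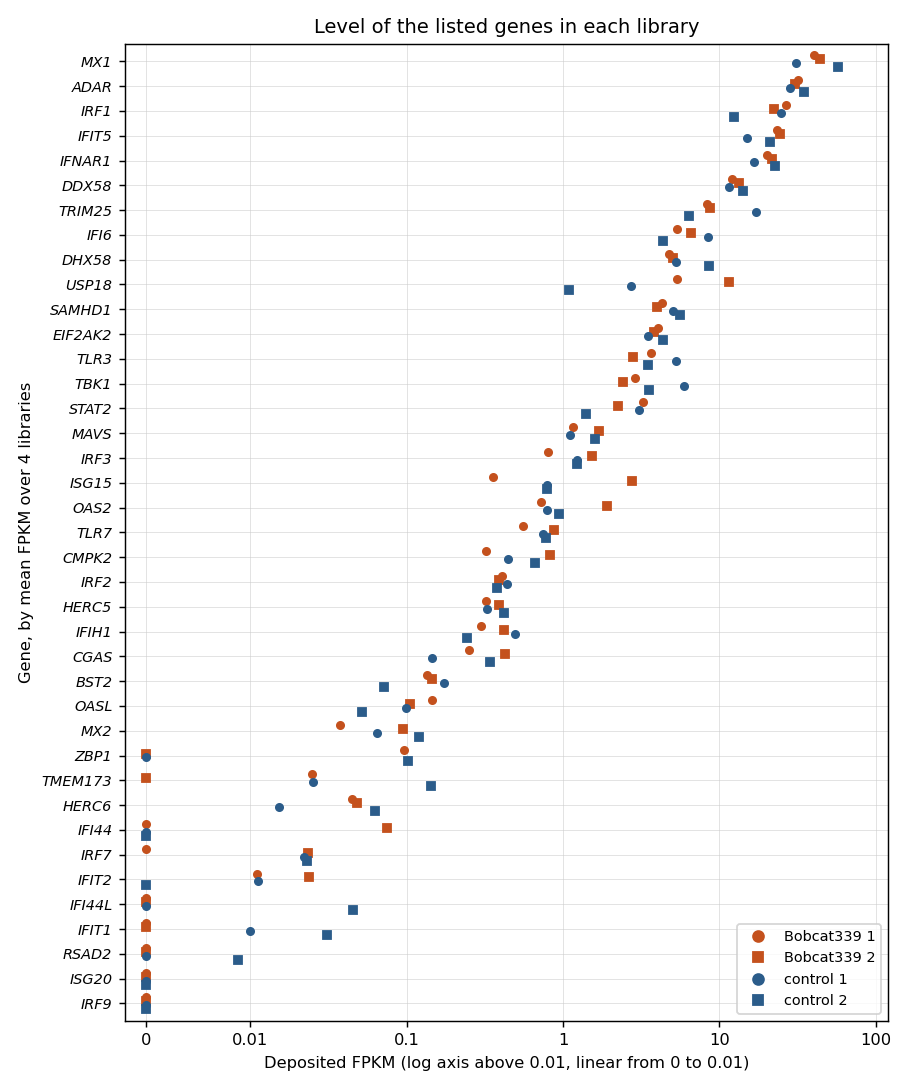
Deposited FPKM of the 39 genes in each library, on an axis that is logarithmic above 0.01 and linear below; circles and squares are libraries 1 and 2, orange Bobcat339 and blue control. Genes run downward by mean level, with MX1 (43.1) first and IRF9 and ISG20, at 0 in every library, last.

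Among the sensors of RNA in the cytosol, DDX58 (RIG-I) stood highest, although its row overlaps that of TOPORS on the same strand. It had 12.1 and 13.4 FPKM in the treated libraries, against 11.6 and 14.2 FPKM in the controls, so the groups overlapped. EIF2AK2, the kinase PKR that halts translation on binding double-stranded RNA, had 4.03 and 3.79 FPKM in the treated libraries, against 3.49 and 4.38 FPKM in the controls. IFIH1 (MDA5) was far lower, at 0.300 and 0.422 FPKM in the treated libraries, against 0.490 and 0.244 FPKM in the controls, from 23 to 48 counts per library. DHX58 encodes LGP2, a relative of both helicases that lacks their signalling domain, and averaged 5.91 FPKM. ZBP1, a sensor of Z-form nucleic acid, had 2 and 0 counts in the treated libraries, against 0 and 2 in the controls.

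The sensor and the adaptor of the cytosolic DNA route had few reads. CGAS had 7 and 11 counts in the treated libraries, against 4 and 9 in the controls. TMEM173 (STING) had 2 and 0 counts in the treated libraries, against 2 and 11 in the controls. The adaptor of the RNA route, MAVS, stood at 1.17 and 1.69 FPKM in the treated libraries, against 1.11 and 1.59 FPKM in the controls, with library 2 above library 1 in both groups. Of the endosomal receptors among the members, TLR3, which binds double-stranded RNA, averaged 3.81 FPKM and TLR7, which binds single-stranded RNA, 0.741 FPKM. TLR8, a related receptor that is no member, averaged 8.36 FPKM. The row of TLR7 overlaps that of PRPS2 on the same strand, so reads shared by both may have been left uncounted.

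The factors that carry the interferon signal to the nucleus were unevenly represented. IRF9 had no reads in any library, and its row overlaps that of REC8 on the same strand, so reads shared by both may have been left uncounted. STAT2, whose row overlaps that of PAN2 on the same strand, averaged 2.49 FPKM. IRF1, a factor induced by interferon that also acts outside the pathway, overlaps an unnamed row on the other strand; it averaged 21.6 FPKM, against 1.20 for IRF3, 0.403 for its relative IRF2 and 0.0172 for IRF7, which had 0 and 1 counts in the treated libraries, against 1 and 1 in the controls. The row of IRF7 overlaps that of PHRF1 on the other strand. The receptor chain IFNAR1 had 20.1 and 21.6 FPKM in the treated libraries, against 16.7 and 22.7 FPKM in the controls. Of 8 listed genes for the ligands, 5 have a row, and these were close to silent. IFNB1 and IFNA1 were at 0 in all 4 libraries, and the 3 others with a row, IFNE, IFNK and IFNG, had a mean under 1 CPM. No row is named IFNW1, IFNL1 or IFNL3.

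The effector genes split within families. MX1, a dynamin-like GTPase that blocks incoming viruses, had 40.3 and 43.7 FPKM in the treated libraries, against 30.7 and 57.7 FPKM in the controls, the lowest and the highest value both being controls. MX2, whose gene ends 15.6 kb before the start of MX1 on chromosome 13, had 3 and 7 counts in the treated libraries, against 5 and 9 in the controls. In the IFIT family of RNA-binding proteins, IFIT5 averaged 20.9 FPKM, while IFIT2 had 1 and 2 counts in the treated libraries, against 1 and 0 in the controls. IFIT1 had 0 and 0 counts in the treated libraries, against 1 and 3 in the controls. These 3 genes lie in a row on the plus strand of chromosome 14, from 101193078 to 101267659, with gaps of 7.3 kb and 3.55 kb, and the row of LIPA on the other strand overlaps all of them. IFIT5 and LIPA cannot be told apart by strand here.

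The enzymes also ranged widely in level. ADAR, which edits adenosine to inosine in double-stranded RNA, had 31.6 and 30.5 FPKM in the treated libraries, against 28.4 and 34.7 FPKM in the controls. SAMHD1, which hydrolyses deoxynucleotides, averaged 4.73 FPKM and OAS2, an oligoadenylate synthetase, 1.09 FPKM. OASL, a relative of OAS2, had 3 and 2 counts in the treated libraries, against 2 and 1 in the controls. CMPK2 (a mitochondrial nucleotide kinase) averaged 0.563 FPKM, and its neighbour RSAD2 (viperin), 5.52 kb away on chromosome 3, had a single count, in control library 2. Of the other effectors, IFI6 averaged 6.17 FPKM and BST2 (tetherin) 0.131 FPKM. IFI44 had 0 and 3 counts in the treated libraries, against 0 and 0 in the controls. IFI44L had 0 and 0 in the treated libraries, against 0 and 2 in the controls, and its row overlaps that of IFI44.

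None of these 24 members passed the edgeR quasi-likelihood test between the groups after Benjamini-Hochberg adjustment over 18481 rows at 0.05, and the share that passed among all rows was 0%. At an unadjusted p of 0.05, 2 members passed, where 4.00% of all rows did (740 rows); USP18 was the 1 higher member, against 1.36% of rows, and TBK1 the 1 lower, against 2.64%. DESeq2 called no member, with 0.0167% of rows passing, and limma-voom called none, with 0%. All 24 had at least 11 counts in every library. Their log2 fold changes were above 0 in 9 and below 0 in 15, and 47.1% of all rows were above 0. The median was −0.05 over the 24 and −0.02 over all rows, and 19 of the 24 lay within 0.5 of 0, as did 77.8% of all rows. In 2 members, USP18 and IFIT5, both Bobcat339 libraries lay above both controls, as in 13.3% of all rows. In 3 members, TBK1, DHX58 and SAMHD1, both Bobcat339 libraries lay below both controls, as in 16.0% of all rows.

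**Figure D2:**
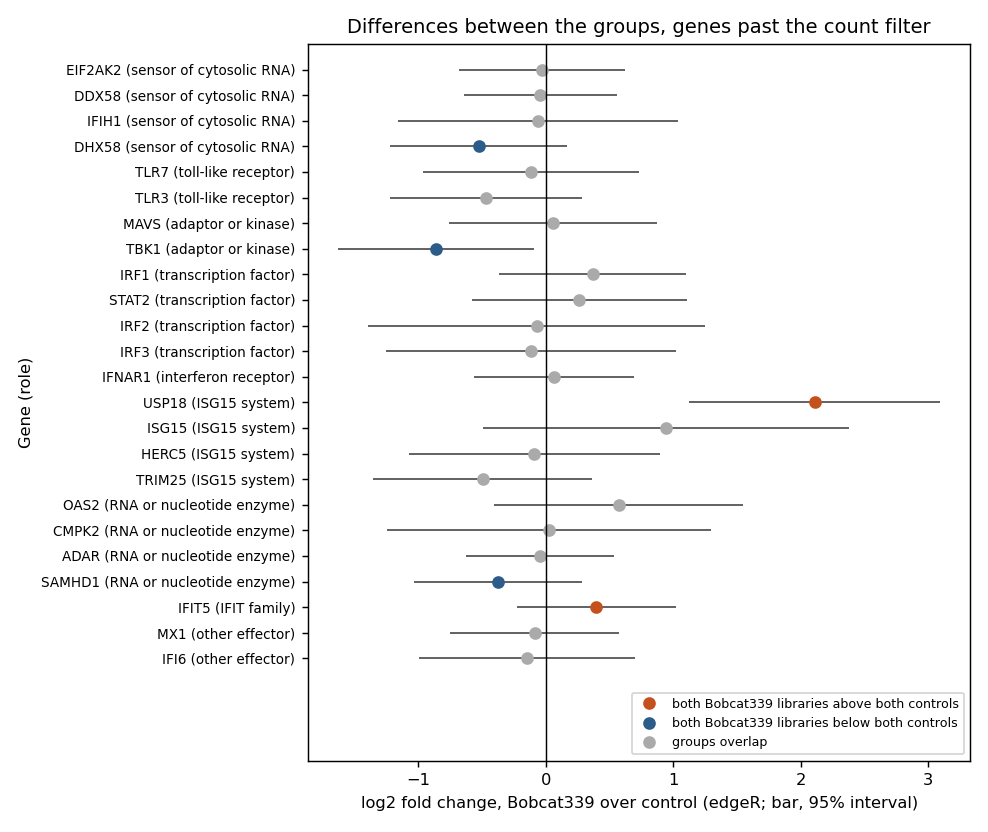
Fitted log2 fold change of Bobcat339 over control for the 24 genes past the count filter, by role, with 95% intervals that are not adjusted for the number of genes. USP18 at 2.11 stands apart to the right, the other 23 lie within 1 of 0, and TBK1 at −0.86 is the lowest.

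USP18 (ENSSSCG00000000774, chromosome 5: 70183279 to 70227984, plus strand) showed the widest difference between the groups among the 24. Its counts were 171 and 341 in the treated libraries, against 85 and 33 in the controls, which corresponds to 11.6 and 24.8 CPM in the treated libraries, against 6.09 and 2.36 CPM in the controls. Every Bobcat339 value lay above every control value, the lower Bobcat339 library being 1.91 times the higher control. The libraries within a group also differed: Bobcat339 library 2 was 2.13 times library 1, and control library 1 was 2.58 times library 2. The mean was 18.2 ± 9.33 CPM in treated embryos, against 4.23 ± 2.64 CPM in DMSO embryos (SD, n = 2 each). The fitted log2 fold change was 2.11 (SE 0.47, 95% interval 1.12 to 3.09), or 4.31-fold. That interval is not adjusted for the number of genes, and the adjusted p was 0.343 with edgeR, 0.111 with DESeq2 and 0.792 with limma-voom. USP18 is also one of the ubiquitin-specific proteases, and the 43 other tested rows named USP with a number had log2 fold changes of −0.72 to 1.23.

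Values of the other genes of the ISG15 system did not separate the groups. ISG15 itself (ENSSSCG00000040575, chromosome 6: 63362889 to 63365398, plus strand) had 0.749 and 5.75 CPM in the treated libraries, against 1.72 and 1.65 CPM in the controls. The Bobcat339 libraries thus lay on both sides of the controls, with library 2 at 7.68 times library 1, and the log2 fold change of 0.94 (SE 0.68, 95% interval −0.49 to 2.38) took its direction from that library. HERC5, the ligase that attaches ISG15 in human cells, had 2.52 and 3.06 CPM in the treated libraries, against 2.65 and 3.29 CPM in the controls, a log2 fold change of −0.09. The row of HERC5 overlaps that of PIGY on the other strand, which had 1226 to 1718 counts per library. HERC6, the neighbour of HERC5, had 3 and 3 counts in the treated libraries, against 1 and 4 in the controls. TRIM25, a ubiquitin ligase that acts on RIG-I, had 15.9 and 16.3 CPM in the treated libraries, against 33.4 and 12.0 CPM in the controls, so the near-equal Bobcat339 values lay between controls that differed 2.78-fold. UBA7 and UBE2L6, which activate and carry ISG15 and are no members, had a mean under 1 CPM.

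IFIT5 (ENSSSCG00000010454, chromosome 14: 101254658 to 101267659, plus strand) had 75.3 and 77.8 CPM in the treated libraries, against 49.6 and 66.7 CPM in the controls. The mean was 76.6 ± 1.74 CPM in treated embryos, against 58.2 ± 12.1 CPM in DMSO embryos (SD, n = 2 each), a fitted log2 difference of 0.40 (SE 0.29, 95% interval −0.23 to 1.02). The groups did not overlap, but the gap between them was narrower than the gap between the controls.

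TBK1 (ENSSSCG00000031103, chromosome 5: 28880205 to 28929963, plus strand), the kinase shared by the RNA and DNA routes, had 10.6 and 8.81 CPM in the treated libraries, against 22.4 and 12.9 CPM in the controls. Both Bobcat339 libraries were low and close together, and control library 1 was the highest of the 4. The mean was 9.72 ± 1.28 CPM in treated embryos, against 17.7 ± 6.75 CPM in DMSO embryos (SD, n = 2 each). The fitted log2 difference was −0.86 (SE 0.36, unadjusted 95% interval −1.63 to −0.09), with an edgeR adjusted p of 0.999.

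DHX58 (ENSSSCG00000017416, chromosome 12: 20647691 to 20658777, plus strand) had 22.8 and 23.9 CPM in the treated libraries, against 26.2 and 41.1 CPM in the controls, with control library 2 alone far above the rest. Its log2 fold change was −0.53 (SE 0.33, 95% interval −1.22 to 0.17), and its row overlaps that of KAT2A on the same strand. SAMHD1 (ENSSSCG00000027806, chromosome 17: 40117360 to 40171904, minus strand) had 24.5 and 22.5 CPM in the treated libraries, against 29.4 and 31.6 CPM in the controls. Here the libraries agreed closely within each group, at 23.5 ± 1.38 CPM in treated embryos, against 30.5 ± 1.50 CPM in DMSO embryos (SD, n = 2 each), and the fitted log2 difference was −0.38 (SE 0.31, 95% interval −1.04 to 0.28).

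**Figure D3:**
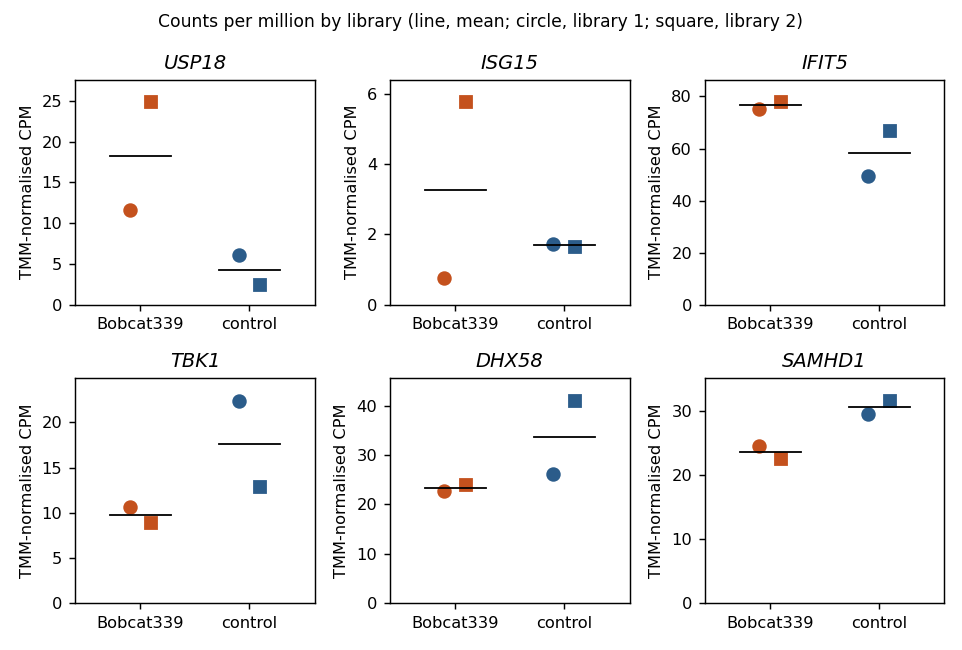
TMM-normalised CPM of 6 genes in each library, with Bobcat339 left of control; circles are library 1, squares library 2 and lines the group mean. USP18 and IFIT5 have both Bobcat339 points above both controls and TBK1, DHX58 and SAMHD1 below, while the ISG15 points of Bobcat339, 0.749 and 5.75 CPM, lie on both sides of the controls.

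Of the 8 members with the highest FPKM, IFIT5 and TRIM25 are described above, and in the 6 others the groups overlapped. MX1 had a log2 fold change of −0.09 (95% interval −0.75 to 0.58), ADAR −0.04 (−0.62 to 0.53), DDX58 −0.04 (−0.64 to 0.56) and IFNAR1 0.06 (−0.56 to 0.69). Each interval reaches to both sides of 0. EIF2AK2, which is not among the 8, was at −0.03 (−0.68 to 0.62). IRF1 had 67.4 and 55.5 CPM in the treated libraries, against 64.3 and 31.0 CPM in the controls, and a log2 fold change of 0.37 (−0.36 to 1.10). Control library 2 was the lowest for IRF1 and the other 3 libraries lay together. STAT2 had the same order of the controls, with 18.3 and 12.5 CPM in the treated libraries, against 17.8 and 7.80 CPM in the controls, and a log2 fold change of 0.26 (−0.58 to 1.10). IFI6 had 7.02 and 8.52 CPM in the treated libraries, against 11.5 and 5.66 CPM in the controls, which enclose them, and a log2 fold change of −0.15 (−0.99 to 0.70).

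The libraries of a pair differed from each other as well. The median difference within the pair, on the log2(CPM + 1) scale, was 0.25 between the treated libraries and 0.39 between the controls over the 24 members, and 0.23 and 0.42 over all tested rows. The control pair was the wider one in 17 of the 24 members, as in 68.1% of all tested rows. TRIM25, STAT2 and USP18 had the widest control pairs among members with a mean of at least 5 CPM, at 2.78-fold, 2.29-fold and 2.58-fold, each with control library 1 higher. MX1 ran the other way, control library 2 being 1.81 times control library 1. Among the 24 members, the Bobcat339 pair was widest in ISG15 (7.68-fold), OAS2 (2.64-fold), CMPK2 (2.52-fold) and USP18 (2.13-fold), all higher in library 2. Others were higher in library 1. IRF1 had 67.4 and 55.5 CPM in treated libraries 1 and 2, STAT2 18.3 and 12.5 CPM and TBK1 10.6 and 8.81 CPM. MX1 (80.1 and 85.8 CPM) and IFIT5 (75.3 and 77.8 CPM) differed little. The share of all rows higher in library 2 was not computed. Bobcat339 library 2 also had the highest summed level of both the cumulus and granulosa markers and the blood and immune markers. The part of these cells in the values of ISG15, OAS2, CMPK2 and USP18 was not tested. Of the 7 tested blood and immune cell markers, 4 had a log2 fold change above 0 and 3 below 0, where 47.1% of all rows were above 0. CD74 had 74 and 94 counts in the treated libraries, against 71 and 28 in the controls. PTPRC went the other way, with 5 and 13 counts in the treated libraries, against 17 and 25 in the controls.

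**Figure D4:**
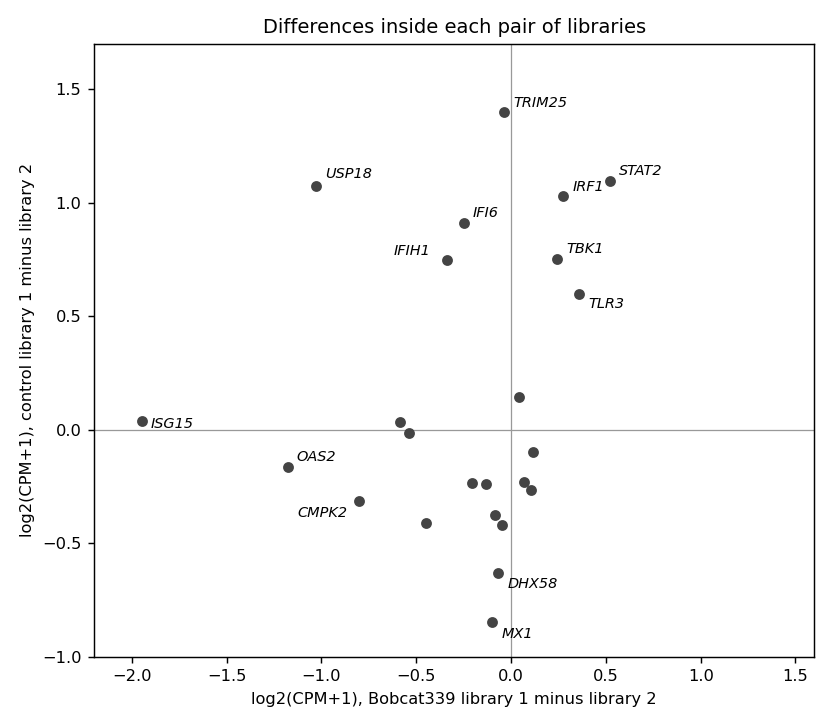
Differences inside each pair of libraries for the 24 genes, on the log2(CPM + 1) scale, with the Bobcat339 pair on the horizontal and the control pair on the vertical axis; both run library 1 minus library 2. ISG15 lies farthest left and TRIM25 highest, and USP18 is far from 0 on both axes.

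With 2 libraries a group, most directions depended on which library was counted. When each of the 4 libraries was left out in turn, 6 members kept the same sign throughout and 18 took both signs. The 6 were USP18 and IFIT5 above 0, and TBK1, DHX58, SAMHD1 and TLR3 below 0. Apart from TLR3, these are the members whose groups did not overlap, so leaving out a library could hardly turn their sign. Groups lay apart in 13.3% (higher) and 16.0% (lower) of all rows, and the share of all rows that kept their sign was not computed. The log2 fold change of USP18 lay between 1.51, without Bobcat339 library 2, and 2.94, without control library 1. That of ISG15 was −1.11 without Bobcat339 library 2 and 1.76 without Bobcat339 library 1. TBK1 ranged from −1.17, without control library 2, to −0.41, without control library 1.

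Calls appeared when a control library was left out, in fits that take the spread from the treated libraries alone and so let the lone control vary alike. Without control library 1, USP18 and IRF1 passed in the higher direction (2 members), where 2.92% of all rows passed. Without control library 2, USP18 passed in the higher and TBK1 and TRIM25 in the lower direction (3 members), where 2.47% of all rows passed. With the replicate number of the titles as a block, USP18 was the 1 member called, where 0.238% of all rows passed. Without either Bobcat339 library no member passed, and the share of all rows was 0%, with 2 members at an unadjusted p of 0.05 without library 1, where 2.47% of all rows were, and 1 without library 2, where 1.50% were.

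**Figure D5:**
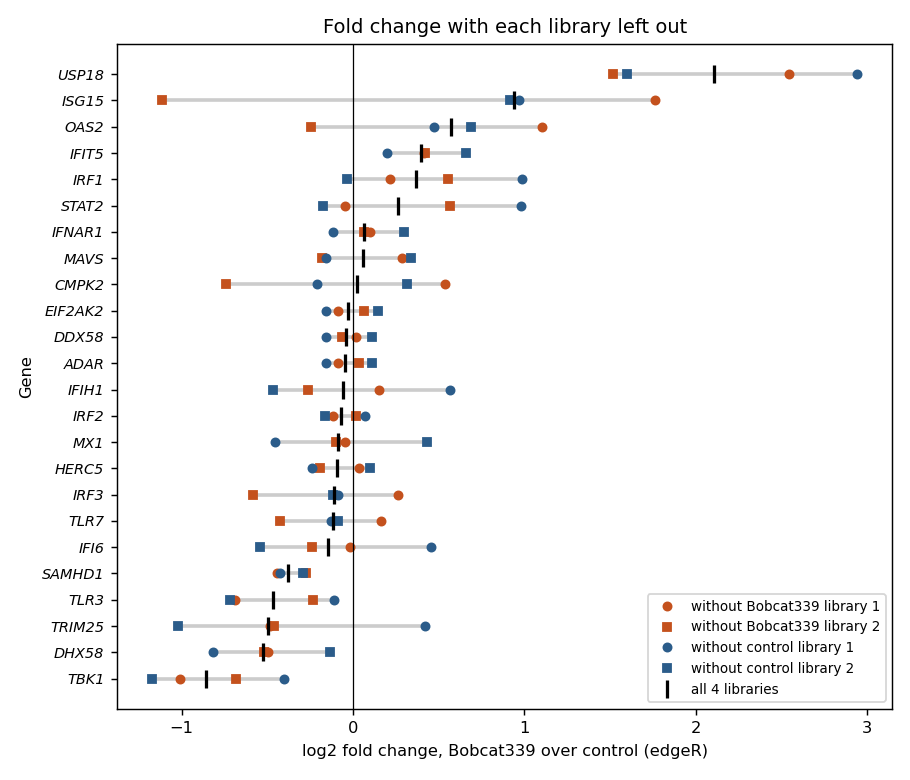
Log2 fold change of Bobcat339 over control for the 24 genes with all 4 libraries (black bar) and with each library left out (orange, a Bobcat339 library; blue, a control library; circle, library 1; square, library 2). USP18 stays right of 0 at 1.51 to 2.94, and the ISG15 points run from −1.11 to 1.76.

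Other genes of the pathway, taken from lists that hold no member, did not pass either. Over all rows, 4.00% had an unadjusted edgeR p under 0.05 and 47.1% had a log2 fold change above 0. Of 8 tested genes of receptor signalling, 0 passed in either direction, with 4 above and 4 below 0; JAK1, the kinase bound to the receptor, had a log2 fold change of −0.13 and STAT3 0.26. Of 24 tested genes of sensing and relay, 0 passed, with 10 above and 14 below 0 and 2 at an unadjusted p of 0.05; the RNA helicases DDX3X and DHX9 were at 0.19 and 0.16. Of 16 other tested interferon-induced genes, 0 passed, with 5 above and 11 below 0 and 2 at an unadjusted p of 0.05; EPSTI1 was at 0.22 and CNP, a phosphodiesterase, at −0.17. None of the 5 interferon ligand genes with a row passed the edgeR filter on low counts. DESeq2, run on every row with a count, called none of IFNE, IFNK and IFNG.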

How the data were processed

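RNA sequencing libraries of 2 Bobcat339 and 2 control samples were compared, grouped by title. Raw read counts and FPKM values for each gene were deposited by the authors, per the file headers. The length behind an FPKM value equals the deposited length within 0.1% at 59.4% of rows and at 13 of the 32 members with a count in Bobcat339 library 1; no source used here says how it was set elsewhere. The 8 members highest by FPKM were also the 8 highest by CPM per kilobase of deposited length. Per the submitters' processing notes, HISAT2 2.0.5, HTSeq, Trimmomatic, DESeq2 1.16.1 and the build Sscrofa10.2 were used. Table positions overlap the Sscrofa11.1 gene of the same symbol at 98.8% of 14169 symbols and at 37 of 37 members compared, so coordinates are those of the table and follow Sscrofa11.1. Whether reads were counted by strand is not stated in any source used here, so reads of overlapping genes cannot be told apart. No sequences were used here.

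Members are the rows whose name equals a listed symbol. The members and lists were chosen with earlier results of these data known. Counts were tested with edgeR 4.0.16 (R 4.3.3; filterByExpr, minimum count 10; TMM, glmQLFit, glmQLFTest, Benjamini-Hochberg at 0.05 over 18481 rows holding 99.7% of the counts), after a check on simulated data. CPM are TMM-normalised. Values in every library were given for USP18, members whose groups do not overlap (mean of at least 1 CPM), the 8 highest by FPKM and the 3 widest control pairs (mean of at least 5 CPM). Outside this rule, ISG15, EIF2AK2, MAVS, IFIH1, HERC5 and the members with few reads were added after their values were seen. In the pathway lists the 2 genes highest by FPKM were named, and TLR8 was added after its values were seen. Alternatives were DESeq2 1.42.0, limma-voom (limma 3.58.1), other scalings and filters, an adjusted p of 0.01, the replicate number as a block and each library left out. Replicates differed beyond counting noise, with a chi-square per gene of 11.2 between the treated libraries and 41.4 between the controls. Measurement columns left unused number 0.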

Additional observations from a re-analysis of the deposited data

How the results depend on the processing

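The count of rows called over the whole table was 0 with edgeR under both other scalings, both other filters, an adjusted p of 0.01 and with limma-voom, and it was 5 with DESeq2, none of them a member. With the replicate number as a block it was 44, and 1 member, USP18, was called; the numbers are shared by the titles and no label pairs the samples, and the correlation of same-numbered deviations across rows was 0.211. With each library left out the count of rows called ran from 0 to 586 and that of members called from 0 to 3. The median log2 fold change of the 24 members ran from −0.21 to 0.03 with a library left out. All 24 members kept their sign under DESeq2, both other scalings and no filter, and 22 of 24 did with limma-voom; the filter of 5 CPM left 17 members, all with the same sign. The 15 members with at most 11 counts in every library stayed below the edgeR filter; 13 of them were tested with DESeq2 and with edgeR without a filter, and 0 passed, while IRF9 and ISG20 had no reads to test.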

Other observations

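Among 48 tested pathway genes that are no members, 4 had an unadjusted edgeR p under 0.05, where 4.00% of all rows did, and all 4 had an edgeR adjusted p of 0.999; they are named here after their values were seen. In the higher direction, TAP1, a peptide transporter of antigen presentation, had 11.4 and 14.6 CPM in the treated libraries, against 7.95 and 3.94 CPM in the controls, which is 1.12 on the log2 scale. IRF8, a factor of the interferon regulatory family, had 77.3 and 112 CPM in the treated libraries, against 61.3 and 43.4 CPM in the controls, or 0.85 on the log2 scale. In the lower direction, NLRX1, a mitochondrial protein of the NOD-like receptor family, had 131 and 79 counts in the treated libraries, against 260 and 140 in the controls, or −0.96 on the log2 scale. TRIM5, a factor that restricts retroviruses, had 2.52 and 0.947 CPM in the treated libraries, against 5.73 and 2.58 CPM in the controls, or −1.25 on the log2 scale. Of the 9 tested cumulus and granulosa markers, 3 were above and 6 below 0, and 1, TNFAIP6, had an unadjusted edgeR p under 0.05. TNFAIP6 had 0.477 and 0.291 CPM in the treated libraries, against 1.72 and 1.57 CPM in the controls, or −2.07 on the log2 scale (edgeR adjusted p = 0.999). These values rest on 7 and 4 counts in the treated libraries, against 24 and 22 in the controls. COL1A1, of the same list, was at 0.57.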
